A study of Drosophila melanogaster with 9 samples.

Results

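The genes described here are 77 genes of the larval fat body of Drosophila melanogaster that carried only a CG number in the deposited table and had their lowest RNA levels in the one group that received no heat shock. Members were chosen by their measured values: all 3 values of the unheated group InRCA_noHS had to lie below all 6 values of the heat-shocked groups control_HS and InRCA_HS, and the mean of each heat-shocked group had to be at least 2 times that of InRCA_noHS. This rule was met by 81 of the 5021 CG-numbered genes, which is 1.61%, and 8 genes were left out by name, 4 of which met it. Of the 5351 genes with other names, 84 met the same pattern (1.57%), and over the whole table of 10372 genes it was 165 (1.59%), so the pattern was about as frequent with a name as without. The mirror pattern, highest without heat shock by the same margins, was met by 38 CG-numbered genes (0.757%).

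RNA was sequenced from fat bodies of feeding female larvae at the mid-third instar stage, with 3 libraries in each group. Virgin females with hs-GAL4, a driver that makes the transcription activator GAL4 after heat, were crossed either to males of stock 8263 with UAS-InR.A1325D, a GAL4-dependent transgene for an always active insulin receptor, or to males of stock 6598 (y1w1118) without it. InRCA_HS larvae came from the first cross and were heated at 37 °C for 30 min, control_HS larvae came from the second cross and were heated alike, and InRCA_noHS larvae came from the first cross, were moved to a new vial without heat and were kept at 25 °C. Fat bodies were taken 6 h later by shearing and centrifugation. All groups carried the driver. The heat that turns the driver on is itself a stress, a driver of this kind is not limited to the fat body, and unheated larvae of the control cross were not analysed here. InRCA_noHS thus differed from InRCA_HS in heat and in the induced receptor, and from control_HS in heat and in the paternal stock, and heat cannot be told apart from these within either pair. Whether replicate libraries stem from separate cultures is not stated, and tests therefore speak only to how these libraries vary, which may be technical.

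The fat body stores fat and glycogen, secretes most proteins of the larval blood and answers infection with antimicrobial peptides. Heat shock makes cells transcribe chaperone genes and slows the making of many other proteins, and recovery follows over hours. The insulin receptor signals nutrient supply to this organ and promotes growth and storage. A CG number is the label that the fly genome annotation gives to a predicted gene, and it says nothing of function. The gene tables used here gave 19 of the 77 members a later name and left 58 with the number alone. A few of the latter had a synonym that was taken to name a protein family, and 52 members had neither a name nor such a synonym. The synonyms DIGF-6 of CG2444 and DIGF-3 of CG15199 were not taken as family names.

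Values are read counts that the authors had adjusted for library size, called adjusted counts here. They still summed to between 10625545 (InRCA_HS replicate 1) and 15514912 (control_HS replicate 3) per library. Reads recovered from them summed to 8762599 (InRCA_noHS replicate 1) to 17610818 reads (InRCA_HS replicate 3) per library. InR, the gene of the transgene, reached 47774 to 66688 adjusted counts in InRCA_HS, 1821 to 3662 in InRCA_noHS and 743 to 826 in control_HS. The libraries thus matched their labels for the cross and for induction of the transgene. Since control_HS lacks the transgene, InR cannot show whether its larvae were heated. Every InRCA_noHS library held more InR RNA than any control_HS library, although it had no heat. The 7 fat body markers measured, among them the storage protein gene Lsp2, summed to 3563415 to 3962703 in control_HS, 2643303 to 3995667 in InRCA_noHS and 2620562 to 3452098 in InRCA_HS. Markers of other tissues were present at lower levels, and none of the genes in the table had a value of 0. The 6 hemocyte markers summed to 4938 to 8567, 3636 to 4409 and 3859 to 6942 in the same order of groups. All control_HS sums thus lay above all InRCA_noHS sums, and those of InRCA_HS overlapped both. Gene by gene, Hml, Pxn and Nplp2 separated control_HS from InRCA_noHS in this way, whereas eater, crq and He overlapped. For the 5 Malpighian tubule markers the sums were 1567 to 2802, 799 to 1809 and 833 to 2725, and for the 9 gut markers 4277 to 5692, 3641 to 8907 and 2997 to 9764. Muscle markers (9 genes) had 32340.0 to 61080.0, 17910.0 to 30279 and 25233 to 29663, and all control_HS sums lay above the rest. Taken singly, only Act57B, Mlc1 and Mlc2 did so, and the other muscle markers overlapped between control_HS and the rest. The 7 salivary gland markers, at 11712 to 35344, 29267 to 93821 and 53606 to 171705, were lowest in control_HS replicates 2 and 3, and 1 of these genes, ng3, had the members' pattern. Sums of the 6 neuron markers were 5136 to 7877, 5512 to 6579 and 2929 to 4297, those of the 6 cuticle markers 2397 to 3744, 3149 to 4892 and 4214 to 12614, and those of the 2 testis markers 40.7 to 69.6, 42.2 to 68.9 and 43.8 to 63.5. Of the cuticle markers 1, Cpr11A, had the members' pattern. The part of these tissues in the values of the members was not tested. In bulk samples, fewer cells of a type and less RNA per cell cannot be told apart.

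The members made up 0.140% to 0.191% of all adjusted counts in the InRCA_noHS libraries, 0.464% to 0.894% in control_HS and 0.602% to 0.697% in InRCA_HS, as shares of library totals that were not equal. Since the rule chose them by the distance between InRCA_noHS and the heated groups, that distance is given as a description, without a test. The smaller of the 2 folds over InRCA_noHS had a median of 2.96 and a highest value of 26.5, and 15 members had at least 5, 22 had 3 to 5, and 40 had 2 to 3. The lowest heated library exceeded the highest unheated one by 1.03-fold to 11.9-fold, with a median of 1.67-fold. Just inside the limit of 2 stood CG14275 with a smaller fold of 2.0, CG8852 with 2.04 and CG16857 (bdl) with 2.06, and just outside CG17734 and CG3940 with 1.98 each and CG3608 with 1.93. These 6 genes differ little in size of change, so the limit separates no distinct class. In 28 members the lowest library rested on fewer than 10 recovered reads, and their folds are correspondingly uncertain.

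**Figure D1:**
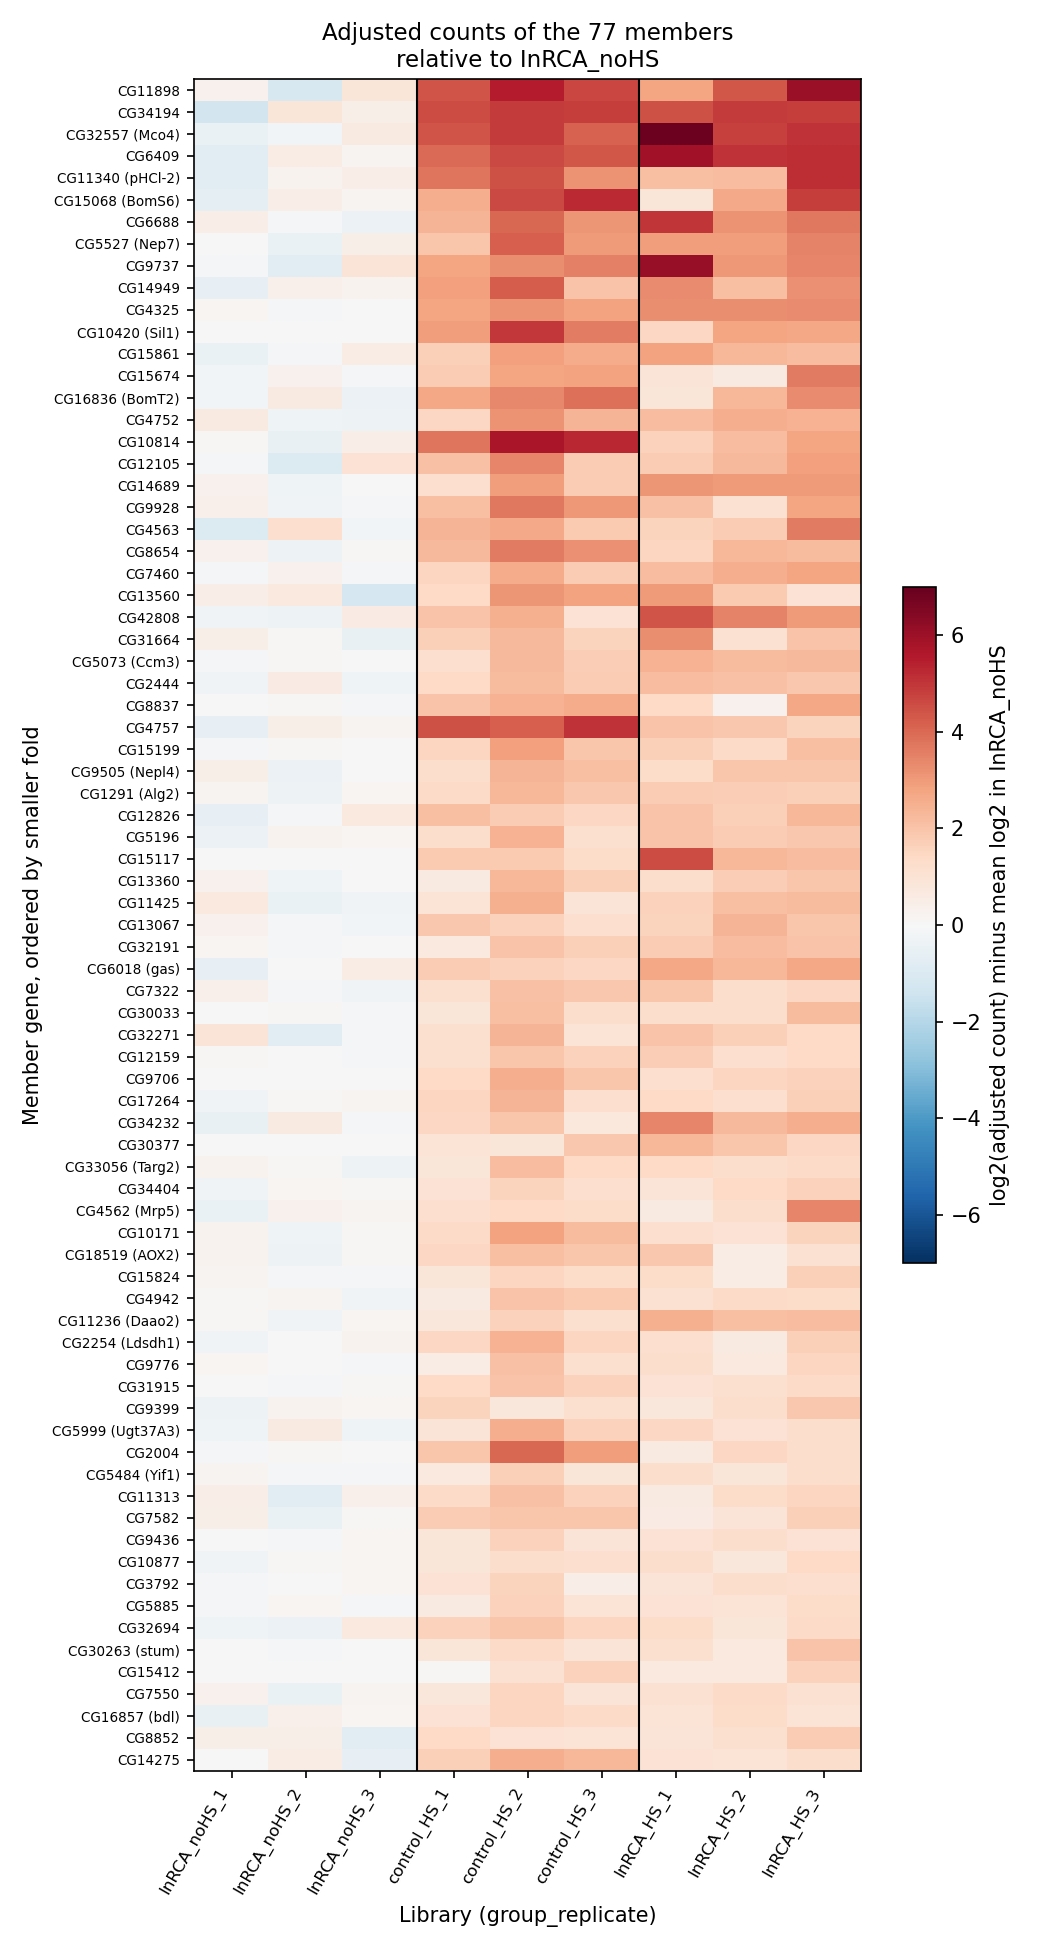
Colour gives log2(adjusted count) of each of the 77 members (rows) in each of the 9 libraries (columns) minus the gene's mean log2 value in InRCA_noHS. The rows run from the largest smaller fold at the top (CG11898, 26.5) to the smallest at the bottom (CG14275, 2.0), and control_HS replicate 2 is the darkest control_HS column in most rows.

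**Figure D2:**
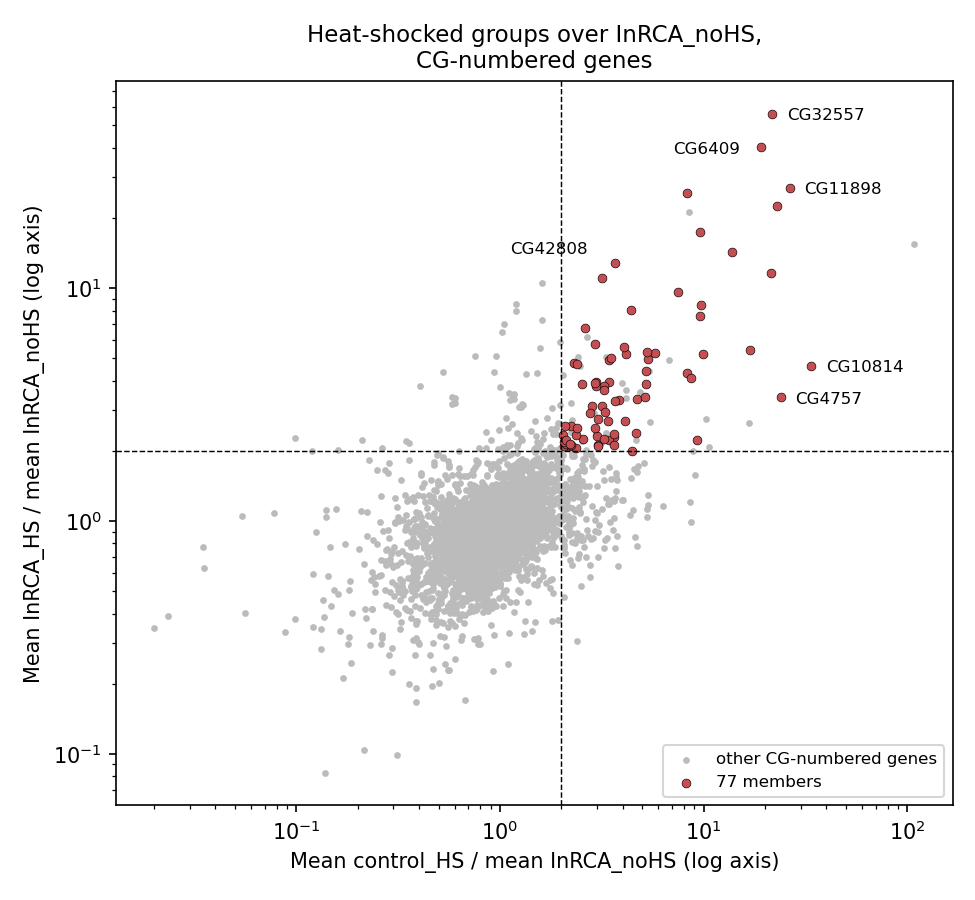
Each point is a CG-numbered gene, with the fold of the control_HS mean over the InRCA_noHS mean on the x axis and that of the InRCA_HS mean on the y axis, both on log axes. Dashed lines mark the limit of 2, members are red, and grey points beyond both lines overlapped between groups or were left out by name.

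Of the 10 members with the largest smaller fold, 5 had neither a name nor a family synonym. CG11898 had adjusted counts of 25.3, 9.32 and 36.4 in InRCA_noHS, 427, 936 and 519.8 in control_HS and 137, 422 and 1346 in InRCA_HS, with group means of 23.7 ± 13.6, 627 ± 271 and 635 ± 632 (mean ± SD of 3 libraries, the form of all means that follow). The heated libraries lay well above the unheated ones, and the InRCA_HS libraries differed widely among themselves. CG11898 shares 318 exon bases with the antisense gene jus, whose means were 8.09, 11.3 and 7.03 in InRCA_noHS, control_HS and InRCA_HS. CG34194 had 2.29, 10.2 and 7.55 without heat, 131, 168 and 159 in control_HS and 122, 165 and 164 in InRCA_HS, which is 22.8-fold and 22.4-fold over InRCA_noHS. Both heated groups were nearly level and tight, and the unheated values rested on 1, 10 and 9 recovered reads. CG34194 shares 164 exon bases with Cc2d2a on the same strand, so its counts are uncertain, and the means of Cc2d2a were 53.9, 56.3 and 49.9 in InRCA_noHS, control_HS and InRCA_HS. CG6409 had 41.2, 97.6 and 77.9 without heat, 1074, 1679 and 1389 in control_HS and 3989, 2269.7 and 2445 in InRCA_HS, and all InRCA_HS libraries lay above all control_HS libraries.

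CG4325 stood out by how little its replicates differed. It had 129.6, 107 and 112 in InRCA_noHS, 786, 1017 and 802 in control_HS and 1099, 1114 and 1130.4 in InRCA_HS, so that the highest and lowest InRCA_HS libraries were nearly equal and all of them lay above the control_HS libraries. CG6688 and CG14949 were the remaining unnamed genes of the 10. CG6688 went from 4.47 ± 1.42 without heat to 42.9 ± 24.7 in control_HS and 77.9 ± 54.1 in InRCA_HS, and CG14949 from 18.5 ± 5.74 to 178 ± 136 and 139.8 ± 54.2.

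Per kilobase of exon, averaged over all libraries, the members ranged from 1.52 adjusted counts for CG32694 to 20498 for CG2444. CG2444 had 5331, 9650.1 and 5118 adjusted counts in InRCA_noHS, 16711, 29900.0 and 22359 in control_HS and 29038, 26767 and 23556 in InRCA_HS. InRCA_noHS replicate 2 was the highest unheated library and still below every heated one. CG10814 came next with 3862 per kilobase, then CG13360 with 3314, CG7322 with 3131 and CG5885 with 2525. CG13360 had means of 2184 ± 488, 6935 ± 3732 and 6817 ± 1589.5 adjusted counts in InRCA_noHS, control_HS and InRCA_HS. For CG7322 they were 1624 ± 358, 5347 ± 1676 and 4769.6 ± 1274, and for CG5885 1495 ± 135, 3273 ± 1191 and 3141 ± 381. In each of these 3 genes the InRCA_HS mean differed from the control_HS mean by less than the SD of control_HS. CG4752 had 716 ± 301, 3814 ± 2104 and 3547 ± 432, CG10171 457 ± 91.5, 2131 ± 1034 and 1089 ± 212, and CG9776 595 ± 55.1, 1523 ± 832 and 1337 ± 358.

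Secreted immune peptides were represented by BomS6 and BomT2, members of the Bomanin family of short peptides that the Toll pathway induces after infection. CG15068 (BomS6) had 1.88, 4.10 and 3.34 in InRCA_noHS, 17.4, 71.9 and 111 in control_HS and 5.33, 18.8 and 83.8 in InRCA_HS. CG16836 (BomT2) had 25.9, 45.2 and 22.3 without heat, 197, 301 and 431 in control_HS and 52.9, 147 and 289 in InRCA_HS. In both genes control_HS replicate 3 and InRCA_HS replicate 3 were high and InRCA_HS replicate 1 was low, close to the unheated libraries. BomT2 stands next to the Bomanin gene BomS3, which is called IM3 in the deposited table and met the same pattern. How reads were divided among such similar genes is uncertain.

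Of 5 peptidase genes, 3 carry serine protease synonyms and 2 belong to the neprilysins, membrane metallopeptidases that cleave small peptides outside cells. CG5527 (Nep7) had 42.9, 30.9 and 56.3 without heat, 159, 764 and 338 in control_HS and 319.9, 319 and 460.1 in InRCA_HS, and CG9505 (Nepl4) 278, 157 and 202 without heat, 487, 1089 and 882 in control_HS and 512, 792 and 790.4 in InRCA_HS. In both neprilysins control_HS replicate 2 was the highest library of its group and replicate 1 the lowest. CG9737 (serine protease synonym SP5) had 3.39, 2.08 and 6.87 without heat, 25.2, 34.8 and 41.6 in control_HS and 246, 30.1 and 39.0 in InRCA_HS. Here InRCA_HS replicate 1 was 6.32-fold above the next library of its group, while the other libraries of both heated groups were close to each other. CG11313 (SP11) had means of 289 ± 116, 876 ± 214 and 615 ± 181 in InRCA_noHS, control_HS and InRCA_HS, and CG32271 (SP176) 6.10 ± 3.69, 16.9 ± 10.1 and 17.7 ± 3.86.

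The secretory pathway, through which the fat body exports its proteins, was represented by Sil1, Alg2 and Yif1. CG10420 (Sil1) encodes a nucleotide exchange factor of the Hsp70 chaperone of the endoplasmic reticulum, a role known from yeast and mammals, and had 50.7, 49.4 and 47.6 in InRCA_noHS. The values were 367, 1539 and 582 in control_HS and 136, 339 and 325 in InRCA_HS. The unheated libraries were almost equal, and control_HS replicate 2 was 2.64-fold above the next of its group. CG1291 (Alg2), a mannosyltransferase of N-glycan assembly, had 398, 278 and 384 without heat, 868, 1734 and 1277 in control_HS and 1191, 1156 and 1127 in InRCA_HS. CG5484 (Yif1), named after a yeast protein of transport between the endoplasmic reticulum and the Golgi, had 371, 297 and 301 without heat, 509, 1040.0 and 580.0 in control_HS and 766, 571 and 743 in InRCA_HS. In all 3 genes the control_HS libraries spread more widely than the others.

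Enzymes of metabolism and detoxification formed the most numerous group with names or family synonyms, with 8 genes and smaller folds of 2.23 to 21.7. CG32557 (Mco4, a multicopper oxidase) had 5.22, 6.18 and 11.1 without heat, 151, 209.9 and 126 in control_HS and 828, 193 and 237 in InRCA_HS. InRCA_HS replicate 1 was 3.50-fold above the next, and the other libraries of that group lay near those of control_HS. CG10814, whose synonym gamma-BBH names gamma-butyrobetaine hydroxylase, the last enzyme of carnitine synthesis, had 444, 283 and 561 without heat, 5455, 21901 and 16072 in control_HS and 1275, 1851 and 2840.1 in InRCA_HS. Its 3 groups did not overlap, with control_HS the highest. CG11236 (Daao2, a D-amino-acid oxidase) had 58.6, 47.3 and 62.0 without heat, 97.9, 169 and 121 in control_HS and 310.1, 237 and 251 in InRCA_HS, again without overlap but with InRCA_HS the highest. CG5999 (Ugt37A3), a UDP-glycosyltransferase that couples sugars to small molecules, had means of 364 ± 149.7, 1242 ± 702 and 811 ± 119 in InRCA_noHS, control_HS and InRCA_HS. CG11425, with the synonym LPP-like for lipid phosphate phosphatase, had 240.0 ± 107, 711 ± 478 and 907 ± 198. CG2254 (Ldsdh1, a dehydrogenase named for lipid droplets) had 224 ± 40.1, 812 ± 342 and 516 ± 174. These genes overlapped between the heated groups. CG6018 (gas, with an alpha-esterase synonym) had 108 ± 38.6, 317 ± 40.2 and 619 ± 88.2, and CG18519 (AOX2, an aldehyde oxidase) 25.1 ± 5.11, 90.5 ± 20.5 and 59.3 ± 27.7. The heated groups of gas did not overlap, with InRCA_HS above, whereas those of AOX2 did.

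Channels and transporters were pHCl-2, Mrp5 and the gene with the synonym dMPC2. CG11340 (pHCl-2), a ligand-gated chloride channel, had 10.5, 20.6 and 23.6 in InRCA_noHS, 233, 373 and 149.6 in control_HS and 75.4, 77.4 and 624 in InRCA_HS. InRCA_HS replicate 3 was 8.07-fold above the next library of its group. CG4562 (Mrp5), an ABC transporter, showed the same lead with 39.1, 66.8 and 62.0 without heat, 124, 145 and 134 in control_HS and 82.9, 129 and 582 in InRCA_HS, 4.52-fold above the next. In InRCA_HS replicate 3 the gut marker sum was also the highest of all libraries, at 9764. It was 8907 and 7637 in InRCA_noHS replicates 2 and 3, where the rule itself required both genes to be low. Of the 9764, Jon25Bi alone made up 5939, and the other gut markers went both ways in that library. There alphaTry at 803 and deltaTry at 370 had their highest values in any library. The value of betaTry, 2258, was exceeded only in InRCA_noHS replicate 3. Jon99Cii, at 65.9, had its lowest value in any library. The part of gut tissue was not tested. CG9399 (dMPC2, for mitochondrial pyruvate carrier) had means of 13.2 ± 2.83, 29.7 ± 8.43 and 33.9 ± 13.7.

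The remaining names were Ccm3, Targ2, stum and bdl. CG5073 (Ccm3), whose human homologue is a cerebral cavernous malformation gene, had 191, 218 and 199.9 in InRCA_noHS, 451, 968 and 677 in control_HS and 1079, 941 and 976 in InRCA_HS. Its InRCA_HS libraries were close to each other, and only control_HS replicate 2 reached their range. CG33056 (Targ2) had means of 106 ± 21.5, 309 ± 141 and 265 ± 16.0. CG30263 (stum, known for mechanical sensing in neurons) and CG16857 (bdl, an immunoglobulin-type membrane protein of the developing eye) were low. Adjusted counts of stum were 11.1, 10.3 and 10.9 in InRCA_noHS, 19.4, 27.7 and 19.9 in control_HS and 23.3, 16.9 and 42.2 in InRCA_HS, and those of bdl 6.90, 12.3 and 10.9 without heat, 19.4, 27.8 and 24.4 in control_HS and 19.1, 23.7 and 19.2 in InRCA_HS.

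**Figure D3:**
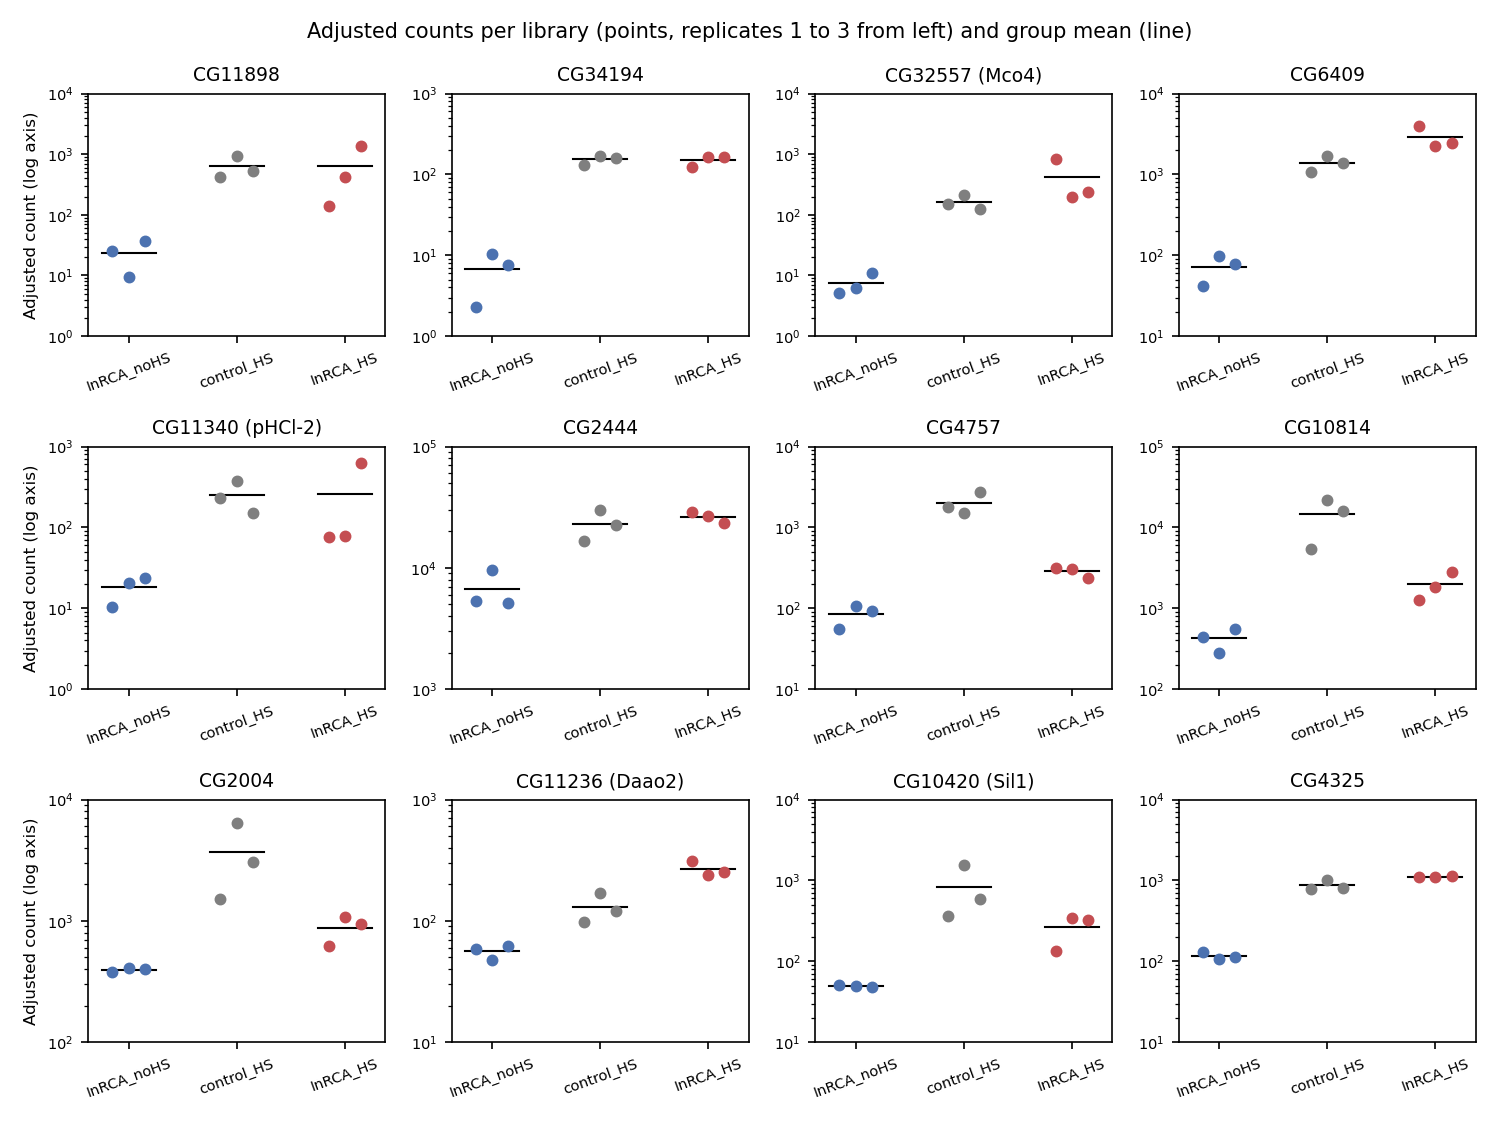
Adjusted counts on log axes of 12 members in each library, with points for replicates 1 to 3 and a line for the group mean. The InRCA_noHS points lie below all others in each panel, and the heated groups separate in CG6409, CG4325, CG4757, CG10814, CG2004, CG11236 and CG10420.

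Among the members only CG30377 and CG12159 were neighbouring protein-coding genes, and they also share 6 exon bases on opposite strands. How often neighbours occur in other sets of genes was not counted, so the number is not shown to be a trait of the members. CG30377 had means of 24.2 ± 0.787, 60.9 ± 26.0 and 93.8 ± 28.0 in InRCA_noHS, control_HS and InRCA_HS, and CG12159 157 ± 7.57, 474 ± 131 and 431 ± 82.6. CG7550 had 191 ± 49.6, 394 ± 110.2 and 415 ± 44.7. A further 3 members lay next to a named gene of the same pattern: CG7550 beside mRpL36, CG16836 beside BomS3 and CG4325 beside moody. By chromosome arm 9 members lay on X, 14 on 2L, 20 on 2R, 14 on 3L and 20 on 3R. As shares these were 11.7%, 18.2%, 26.0%, 18.2% and 26.0%, against 16.7%, 17.8%, 19.7%, 19.7% and 25.6% of the CG-numbered genes of the table. In all, 24 members (31.2%) shared exon bases with another annotated gene, 22 of them with an antisense gene, against 37.0% of the table's genes that could be matched by their ID. Apart from CG30377 and CG12159, no partner gene found in the table had the pattern itself. CG13360 shared 361 exon bases with the antisense gene tw, CG2444 85 with PhKgamma, Mrp5 456 with CG4686 and CG2004 7 with Hexo2. Whether reads were counted by strand is not given, so counts in shared bases are uncertain.

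Among 20 measured genes of heat shock proteins and their cofactors, 1 (5.0%), Hsc70-3, had the members' pattern 6 h after the heat, beside 1.59% of all genes. A higher mean in both heated groups than in InRCA_noHS was found in 6 of the 20 (30.0%), beside 21.6% of all genes. Hsc70-3, the Hsp70 chaperone of the endoplasmic reticulum and the partner of Sil1, had 10148, 10569 and 12274 in InRCA_noHS, 32951, 54067 and 25273 in control_HS and 22490.0, 28437 and 32126 in InRCA_HS. The most abundant, the small heat shock protein gene Hsp23, had 47322, 46577 and 56956 without heat, 27946, 12950.0 and 18138 in control_HS and 33354, 57195 and 29319 in InRCA_HS, so all control_HS libraries lay below the unheated ones. The constitutive Hsp70 gene Hsc70-4 had 31350.0, 34588 and 42059 without heat, 41741, 35472 and 39802 in control_HS and 24902, 35142 and 32288 in InRCA_HS, with overlapping groups. The heat-inducible Hsp70 copies differed: Hsp70Ba had 15.7, 58.5 and 26.6 without heat, 14.5, 27.8 and 34.8 in control_HS and 16.0, 7.49 and 17.5 in InRCA_HS, low in every library, and Hsp70Bb 33.5, 134 and 42.3 without heat, 34.8, 107 and 148 in control_HS and 662, 402 and 520.3 in InRCA_HS, high in InRCA_HS alone. Reads of the Hsp70 copies may be split between near-identical genes. Within each group the libraries ranked alike by Hsp70Bb and by InR, which had 66688, 47774 and 60402 in InRCA_HS. Whether RNA of the transgene added to the Hsp70Bb reads was not tested.

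Within the heat-shocked control group most members shared an order of libraries. Control_HS replicate 2 held the highest value of its group in 63 of 77 members (81.8%), against 33.2% of all genes, and replicate 1 the lowest in 55 (71.4%), against 40.5%. The median deviation from the group's mean log2 level was 0.48 in replicate 2 and −0.38 in replicate 1 over the members, and 0.03 and −0.02 over all genes. The rule did not use the order within a group, but it kept members whose lowest heated library was still above the unheated ones. It also set a limit on the control_HS mean, which a single high library can lift. Without control_HS replicate 2 the rule kept 67 of the 77 members, and without replicate 1 or 3 it kept 75. Part of this order may therefore come from the choice of members. The 84 genes with other names, chosen by the same pattern, had a similar order, with replicate 2 the highest in 90.5%. In InRCA_HS, replicate 3 was the highest in 38 members (49.4%, against 34.2% of all genes), and in InRCA_noHS the 3 libraries shared the highest value nearly evenly, with 28, 27 and 22 members. Of the marker sums, those of hemocytes (5741, 8567 and 4938 in replicates 1 to 3), fat body (3563415, 3962703 and 3600524) and gut (4277, 5692 and 4992) were also highest in control_HS replicate 2, and the other 6 were highest in another replicate. Their part in the order was not tested. The median member had 159, 301 and 159 adjusted counts in the control_HS libraries, 177, 193 and 252 in those of InRCA_HS and 29.7, 42.1 and 40.9 in those of InRCA_noHS.

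**Figure D4:**
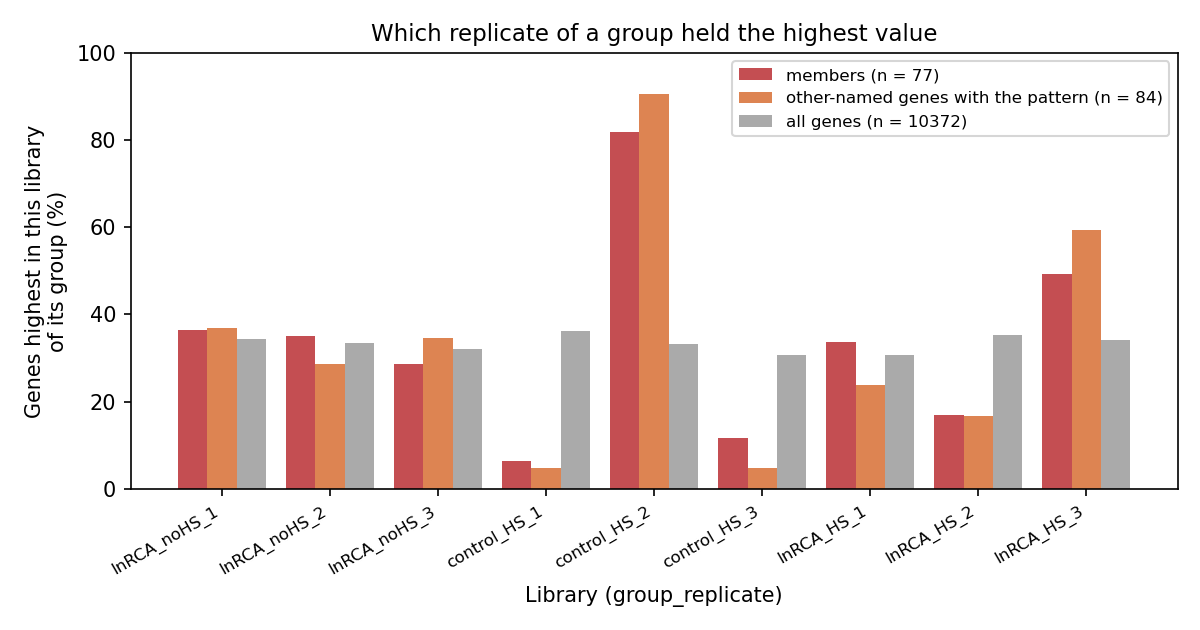
Bars give the percentage of genes whose highest value within a group fell in each library, for the 77 members, the 84 other-named genes with the pattern and all 10372 genes. Control_HS replicate 2 held the highest value of its group in 81.8% of members and 33.2% of all genes.

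In some members a single heated library led its group by at least 2-fold. How often this occurs over all genes was not counted, so it is not shown to be a trait of the members. Control_HS replicate 2 led in 9 members, among them Nep7, Sil1, CG5196, CG11425 and CG2004. InRCA_HS replicate 1 led in 6, namely Mco4, CG6688, CG9737, CG13560, CG31664 and CG15117. InRCA_HS replicate 3 led in 7 others, namely CG11898, pHCl-2, BomS6, CG15674, CG4563, CG8837 and Mrp5. No member had such a lead in control_HS replicates 1 or 3 or in InRCA_HS replicate 2. CG15117 had 372, 78.4 and 69.3 in InRCA_HS against 55.3, 56.8 and 38.2 in control_HS, and CG15674 had 13.7, 11.2 and 92.8 against 25.1, 51.0 and 53.0, so that the InRCA_HS mean of either gene rested mainly on 1 library.

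InRCA_HS against control_HS, the comparison named in the series' design, sets heated larvae with the induced receptor beside heated larvae of the control cross. The paternal stocks differ too, and this cannot be told apart from the receptor. The fat body marker Fbp2 had 6081 to 10683 in control_HS, against 122650.0 to 198420.0 in InRCA_noHS and 104160.0 to 155030.0 in InRCA_HS. In this gene control_HS thus stood apart from both InRCA groups, heated or not. Of the 7 fat body markers measured, Fbp2 alone passed the threshold of the test described below. The rule left the direction of the members' difference between InRCA_HS and control_HS open. Since both heated means had to exceed InRCA_noHS by 2 times, it kept out genes high in a single heated group and so limits the size. Counts and medians over the members are therefore descriptions of genes chosen in this way. InRCA_HS against control_HS was tested with limma on log2(adjusted count + 1) over all 10372 genes, with Benjamini-Hochberg adjustment and a threshold of 0.05. All 77 members passed the filter on low values. In InRCA_HS relative to control_HS, 1 member rose (1.3%), beside 1.11% of all genes, and 3 members fell (3.9%), beside 1.32% of all genes. The quasi-likelihood test of edgeR on recovered reads called the same 4 members, beside 1.14% of all genes higher and 1.56% lower. Both tests took their spread from all 9 libraries, so also from InRCA_noHS, whose values the rule used, and they are not independent. With the 6 heated libraries alone, CG4757 passed (limma adjusted p = 0.0022). CG10814, CG2004 and Daao2 then did not pass (limma adjusted p = 0.0646, 0.12 and 0.0961). The median log2 fold change of the members was −0.01 and that of all genes 0.00, with 38 members above 0. All 3 InRCA_HS values lay above all 3 control_HS values in 8 members (9.53% of all genes) and below them in 8 members (11% of all genes), and in 61 members the heated groups overlapped. In 64 members the means of InRCA_HS and control_HS differed by at most 2-fold. At an unadjusted p under 0.05 there were 18 of the 77 members, beside 18.3% of all genes. Single values spread more than in the table at large: the median SE was 0.35 over the members and 0.25 over all genes, and the median absolute log2 fold change 0.46 and 0.28.

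The clearest difference was that of CG4757, which has no name in the tables used. It had 55.2, 106 and 91.3 adjusted counts in InRCA_noHS, 1802, 1491 and 2725 in control_HS and 318, 303 and 236 in InRCA_HS. The 3 groups did not overlap, and InRCA_HS stood much nearer to the unheated group. Its log2 fold change in InRCA_HS against control_HS was −2.77 (SE 0.28, limma adjusted p = 0.00102), lower in each InRCA_HS library than in any control_HS library, and it passed in all 9 fits that left out 1 library. CG10814, the gamma-BBH gene, fell by a similar amount (−2.72, SE 0.47, limma adjusted p = 0.02). Without control_HS replicates 2 or 3 its adjusted p was 0.0668 and 0.085, and without InRCA_HS replicates 1 or 2 it was 0.086 and 0.0591.

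CG2004, likewise without a name, had 376, 411 and 399 in InRCA_noHS, 1516, 6411 and 3053 in control_HS and 620.5, 1069.7 and 942 in InRCA_HS. It fell in InRCA_HS with a log2 fold change of −1.85 (SE 0.41, limma adjusted p = 0.0452). This call held without control_HS replicate 1 (adjusted p = 0.00335) and ended without any other single library, with adjusted p-values of 0.0597 (without InRCA_HS replicate 3) to 0.168 (without InRCA_HS replicate 1). Daao2 was the member that rose (1.06, SE 0.23, limma adjusted p = 0.0423). Its call held without control_HS replicates 1 and 2 (adjusted p = 0.0423 and 0.0484) and ended without each of the other 7 libraries, with adjusted p-values of 0.061 (without InRCA_noHS replicate 2) to 0.171 (without InRCA_HS replicate 1).

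Some estimates of similar size did not pass. CG42808 had a log2 fold change of 1.76 (95% interval 0.76 to 2.76, limma adjusted p = 0.0696), with 31.0, 43.8 and 15.9 in control_HS and 169, 86.1 and 62.8 in InRCA_HS. CG34232 had 1.36 (0.50 to 2.22, limma adjusted p = 0.0926) and CG6409 1.05 (0.34 to 1.75, limma adjusted p = 0.108). Sil1 had −1.48 (−2.53 to −0.43, limma adjusted p = 0.124), and the intervals of these 4 genes did not include 0 before adjustment. For BomS6 the estimate was −1.27 (−3.20 to 0.65) and for BomT2 −1.16 (−2.34 to 0.01), and both intervals include 0. CG34194 had −0.03 (−0.90 to 0.84) and CG5885 −0.01 (−0.51 to 0.50), the second with the narrower interval.

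Control_HS replicate 1 had an effect on the counts in this comparison. Without it, 2 of the 77 members were higher and 9 lower, beside 3.13% and 6.13% of all genes. The 2 that were higher were Daao2 and gas (1.06, limma adjusted p = 0.0455). Those lower were CG4757, CG10814, CG2004, Sil1 (−1.94, adjusted p = 0.0286), CG14275, CG8654, CG10171, CG9706 and CG31915. The members' median log2 fold change was then −0.29, and it was 0.21 without control_HS replicate 2, so its sign changed with single control_HS libraries.

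**Figure D5:**
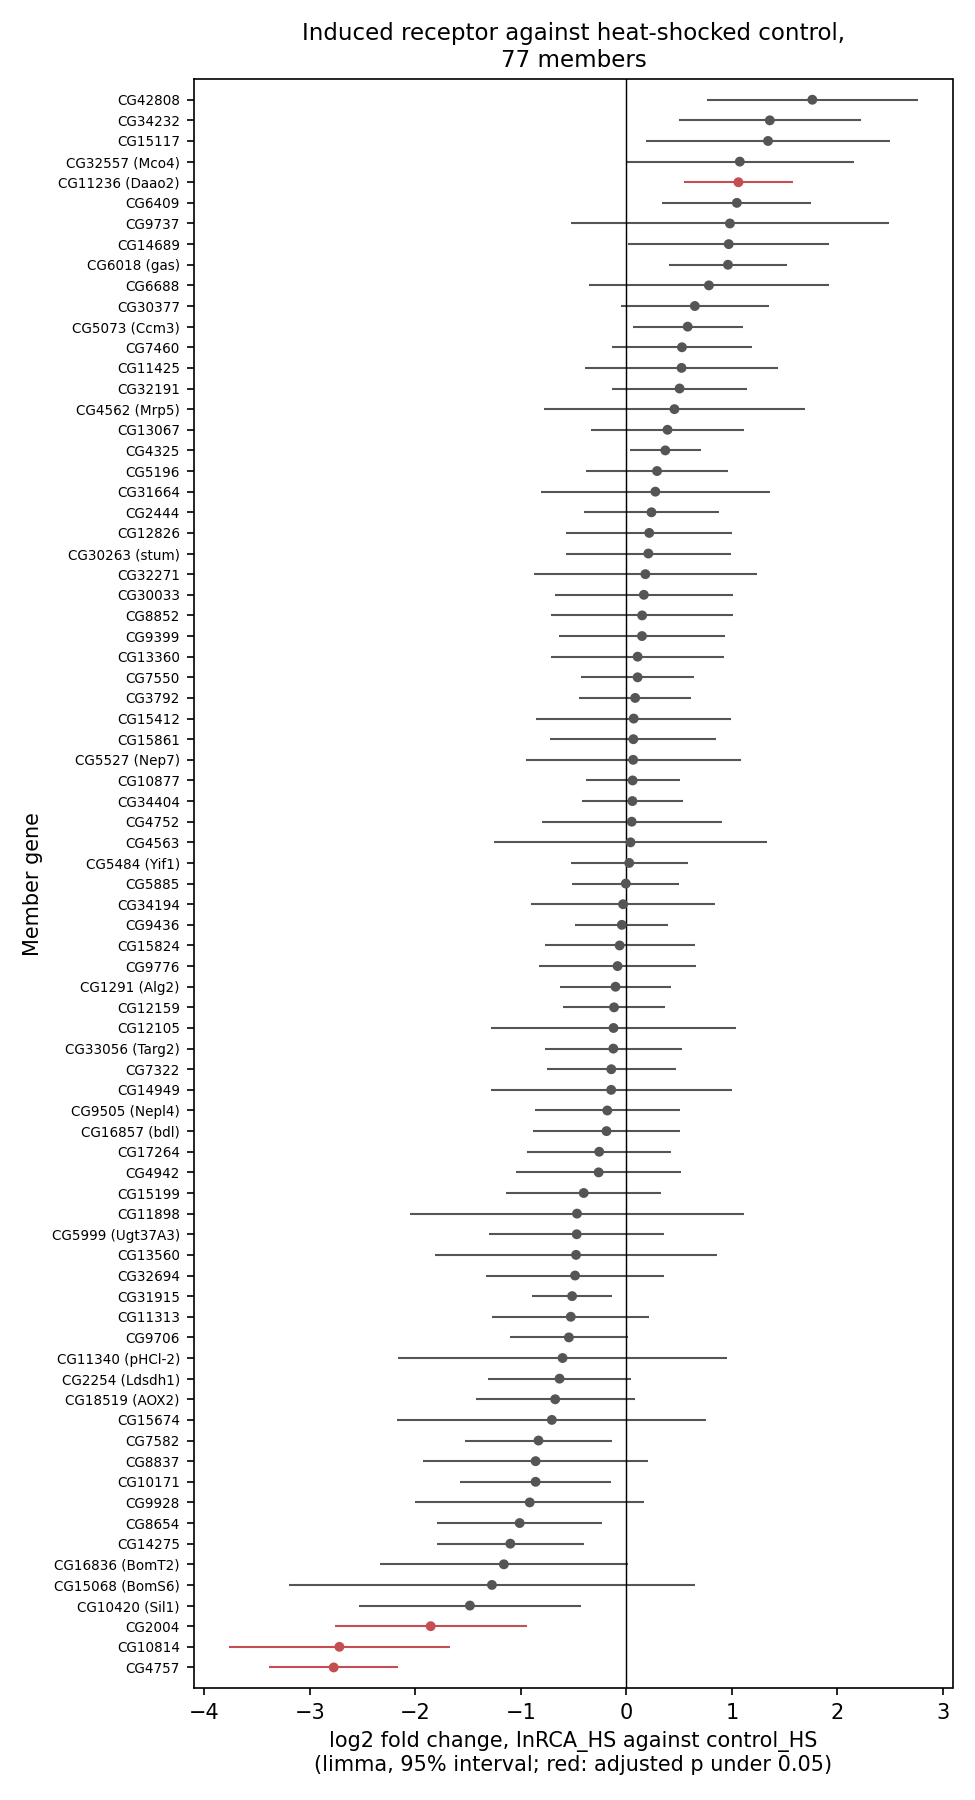
Points give the log2 fold change of each of the 77 members in InRCA_HS against control_HS, with 95% intervals from limma. Red marks the 4 members past the threshold, CG4757, CG10814 and CG2004 below 0 and CG11236 (Daao2) above it.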

How the data were processed

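Each deposited value is a signal (an adjusted read count, never negative) that the authors had adjusted for library size. Per the submitters' processing notes, Cufflinks 1.1.0, Bowtie 0.12.7 and TopHat 1.3.2 were used, with the build dm3. Which program counted reads, with which annotation and whether by strand, is not given in the sources used here. Undoing a quantile adjustment of negative binomial counts (dispersion 0.069) turned 99% of 38615 low values (at most 100) into whole reads, with a tolerance of 0.1. No values of other samples were present (0 columns).

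The test was that of limma 3.58.1 (R 4.3.3) on log2(adjusted count + 1), in a single fit of all 9 libraries with 3 group means and a trended empirical Bayes spread. The fold changes of low genes are understated on this scale. The filter (mean of at least 1) removed 0 genes. In simulated data for this comparison, run on 10372 genes, the test found 22% of 100 genes changed 2-fold and 81% of 100 changed 4-fold, with 5 false calls. The quasi-likelihood test of edgeR 4.0.16 on the recovered reads was added after seeing the data.

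Names and chromosome arms came from gene tables of a later build (76 members matched by gene ID, 77 by locus tag). Neighbours, exon lengths and overlaps came from Ensembl release 115, so no coordinates are given. Members, lists and tests were chosen with earlier results of these data known. Named were the 10 members with the largest smaller fold, the 10 with the highest mean, all called ones, those at the limit, examples per protein class, neighbours and list genes. Fewer list genes are printed than this rule takes, and genes named for a single leading library or a large uncalled estimate were chosen after their values were seen. No sequence was used here.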

Additional observations from a re-analysis of the deposited data

How the results depend on the processing

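In InRCA_HS against control_HS, the 4 member calls kept their direction under every alternative run, and CG4757 passed under all of them. All 4 passed with pseudocounts of 0.1 and 5, no filter, a mean of at least 20, median-of-ratios scaling and edgeR on recovered reads (118 genes higher and 162 lower over the table, 1 and 3 among members, the same 4 genes). Without the intensity trend 46 genes were higher and 44 lower (members 0 and 1), with array quality weights 331 and 569 (members 4 and 8), and with the 6 heated libraries alone 30 and 26 (members 0 and 1). Quantile normalization and the replicate block each left 0 members higher (Daao2, limma adjusted p = 0.0593 and 0.0864). The block gave 91 and 95 genes and kept 3 members lower. Same-numbered control_HS and InRCA_HS libraries did not deviate together (correlations across genes of −0.04, −0.25 and 0.07). InRCA_noHS was not part of this check, which cannot decide whether same-numbered libraries shared a batch. Leaving out 1 library gave 32 to 325 genes higher, 21 to 636 lower, 0 to 2 members higher and 1 to 9 lower.

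The rule found 126 genes with a minimum of 1.5 times and 37 with 3 times, and 64 to 99 without 1 library. Median-of-ratios scaling gave 91 and quantile normalization 90, including all 77. The planned motif comparison was not run, since no promoter sequence was at hand. Depth limits members with few unheated reads. The causes of these shifts were not tested.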
